A study of Arabidopsis thaliana with 12 samples.

Results

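The transcripts of iU1-52 seedlings were set against those of wild-type Col-0 seedlings of *Arabidopsis thaliana* after 14 days on MS agar with 200 mM NaCl. The arrays were chosen by the line and the salt concentration in their labels, with no measured value used, and make up 6 of the 12 arrays of the series, 3 of each line. The other 6 arrays hold the same lines on MS agar without salt and served only to set a difference on salt beside that without it. iU1-52 is 1 transgenic line, in which double-stranded RNA interference (dsRNAi) against *GlcNA.UT1* was placed in the *glcna.ut2-1* mutant, and Col-0 carries neither change. The seeds were sown on the salt itself, so that germination and growth both took place on it, and RNA was taken from whole seedlings. The methods call the 3 arrays of a group biological replicates, whereas the labels do not say whether they came from separate plates or plants, so that p-values measure only the spread between these samples.

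*GlcNA.UT1* and *GlcNA.UT2* encode the enzymes for the last step of the hexosamine pathway, which makes UDP-GlcNAc, the activated sugar that starts N-glycans on proteins in the endoplasmic reticulum (ER). Seeds of Arabidopsis are held in dormancy by abscisic acid (ABA), which also keeps the embryo program of storage proteins, oil bodies and protective proteins switched on. In the course of germination that program is shut down, the stored reserves are used up and the cotyledons turn green. Salt raises ABA, and a seed that germinates on salt can arrest before it greens.

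Values are log2 normalised signals of 1-colour arrays, and a difference is iU1-52 minus Col-0 on that scale, so that 1 unit is 2-fold. A feature is an annotated locus, represented by its brightest probe, or a probe with no matched locus, and 23942 features were tested, of which 20270 were loci. A feature was called when its difference reached 2-fold and its adjusted p in limma (Benjamini-Hochberg over all features) was under 0.05, and only called features are said to have risen or fallen. Of the spots, 75.4% to 79% lay well above background on the 6 salt arrays. The 3 iU1-52 arrays correlated with each other at 0.978 to 0.994 and the 3 Col-0 arrays at 0.995. The median feature had a standard deviation (SD) of 0.215 in iU1-52 and 0.0715 in Col-0. The iU1-52 array of replicate 1 stood apart from the others of its line, with a median deviation of 0.317 against 0.184 and 0.188, and its 75th percentile of raw signal was 2503, against 3872 and 3920 on the other iU1-52 arrays and 2945 to 3071 on the Col-0 arrays. Each of 3 slides held 1 array of each line and medium in the same position, so that position on the slide and group cannot be told apart.

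No probe was matched to *GlcNA.UT1* (AT1G31070), the gene targeted by the dsRNAi, and its level was not analysed here. *GlcNA.UT2* (*GlcNAc1pUT2*, AT2G35020), whose mutant allele iU1-52 carries, had a pair of probes. The brighter one read 12.70, 12.26 and 12.19 in iU1-52, against 12.91, 12.95 and 12.88 in Col-0, a difference of -0.53 ± 0.15 (SE, adjusted p = 0.0346) that did not reach 2-fold. The dimmer probe, A_84_P823089, read 8.62, 8.28 and 8.03 in iU1-52, against 9.71, 9.74 and 9.71 in Col-0, a difference of -1.41 with an adjusted p of 0.00129 when each probe was tested on its own. On both probes all 3 iU1-52 arrays lay below all 3 Col-0 arrays. Without salt the differences at the probes were -1.003 and -2.20.

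The other genes of the pathway, and the O-glycosyltransferases *SEC* and *SPY* listed with them, did not pass the test on salt. *GFAT* (AT3G24090), the amidotransferase of the first committed step, came nearest and read 9.91, 10.05 and 9.97 in iU1-52, against 8.89, 9.03 and 9.02 in Col-0. Its difference of 0.999 ± 0.09 (adjusted p = 0.000773) was 1.998-fold, just under the limit, and the groups did not overlap. The difference was at most 1.03 in the settings that took it past the limit of 1. These were 75th percentile scaling, array weights and leaving out iU1-52 replicate 1 or 3 or Col-0 replicate 2 or 3. *GNA1*, the glucosamine-phosphate acetyltransferase, differed by -0.06 (adjusted p = 0.788) and *DRT101*, the phosphoacetylglucosamine mutase, by 0.32 (adjusted p = 0.0252). *SEC* and *SPY*, the nuclear and cytosolic O-glycosyltransferases, differed by 0.63 and 0.50 (adjusted p = 0.0863 and 0.043).

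On salt 2583 features were called, 10.8% of those tested, with 1244 (5.20%) higher and 1339 (5.59%) lower in iU1-52. Counts of called list members below are to be read against these shares. A further 5673 of the 23942 features had an adjusted p under 0.05 alone, with a difference under 2-fold. Without salt, in a fit of all 12 arrays, the same criterion called 78 features, 0.326%, of which 72 were higher and 6 lower in iU1-52. The median size of a difference, whatever its sign, was 0.33 on salt and 0.06 without it. Differences of over 4-fold were held by 299 of the higher and 429 of the lower features, and differences of over 8-fold by 45 and 132. The iU1-52 and Col-0 arrays of all 2583 called features did not overlap, which was so for 53.3% of all features tested. The lack of overlap fixes the sign of the difference on each of the 3 slides, so that the sign is no further check. The difference reached 2-fold on slide 1 for 1976, on slide 2 for 2277 and on slide 3 for 2393. In RNA of whole seedlings, fewer cells of a type and less RNA per cell cannot be told apart. When the iU1-52 array of replicate 1 was left out, 3506 features were called, and they included 2477 of the 2583.

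**Figure D1:**
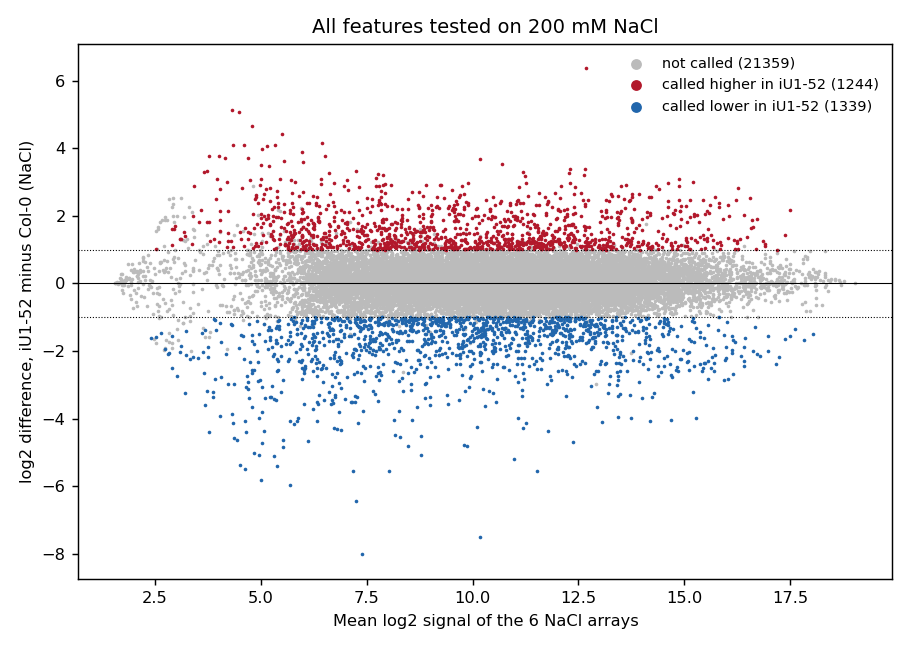
Difference between iU1-52 and Col-0 on 200 mM NaCl (y axis, log2) against the mean signal of the 6 arrays (x axis, log2) for the 23942 features, with called features in red (higher, 1244) and blue (lower, 1339) and dotted lines at 2-fold. The blue points reach further from 0 than the red ones, with 132 lower and 45 higher features past 8-fold.

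The 15 largest rises and falls were taken among called loci well above background on all 6 arrays, with no overlap between the lines as a condition. The rises were led by a pair of cytochrome P450 genes, and 4 of the others that the annotation names encode storage or late embryogenesis proteins of the seed. *CYP71A18* (AT1G11610), a cytochrome P450 of indole metabolism, read 8.29, 8.47 and 8.81 in iU1-52, against 3.95, 3.95 and 5.19 in Col-0, a rise of 4.16 ± 0.36 (SE, adjusted p = 0.000696). *CYP71A13* (AT2G30770), which acts in the synthesis of the phytoalexin camalexin, read 11.79, 11.77 and 12.44 in iU1-52, against 7.29, 8.84 and 8.87 in Col-0, a rise of 3.67 ± 0.45 (adjusted p = 0.00212). In both the 3 iU1-52 arrays lay close together, above every Col-0 array. Without salt *CYP71A18* was higher in iU1-52 by 2.09 (adjusted p = 0.0293), while *CYP71A13* differed by 2.93 (adjusted p = 0.0687) and was not called. With normexp background correction the difference of *CYP71A18* on salt was 1.95.

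*M10* (AT2G41280), a late embryogenesis abundant protein, read 14.20, 13.50 and 13.99 in iU1-52, against 9.79, 11.12 and 11.01 in Col-0, a rise of 3.26 ± 0.38. *ECP31* (AT3G22500) and *ECP63* (AT2G36640), of the same class, rose by 3.20 ± 0.19 and 3.00 ± 0.34. *SESA3* (AT4G27160), a 2S albumin that stores nitrogen in the seed, read 14.83, 14.12 and 14.10 in iU1-52, against 8.64, 12.78 and 11.46 in Col-0, a rise of 3.39 ± 0.99 (adjusted p = 0.0405), and its spread came mostly from Col-0, whose replicate 1 was far below the others. This call was lost (adjusted p = 0.0615 to 0.218) when iU1-52 replicate 1, 2 or 3 or Col-0 replicate 3 was left out, without the filter on dim probes, with the slide as a block (0.0558) and with array or group weights. *AHG1* (AT5G51760), a phosphatase that holds back ABA signalling in seeds, read 11.43, 11.16 and 11.54 in iU1-52, against 7.63, 8.78 and 8.78 in Col-0, a rise of 2.98 ± 0.33. *LCR67* (AT1G75830, also PDF1.1), a plant defensin, rose by 3.21 ± 0.50, and AT1G78500, annotated as a pentacyclic triterpene synthase, by 3.07 ± 0.64. The remaining 6 loci, which the annotation does not name, were AT4G18650 (3.54), AT2G17680 (3.32), AT2G05580 (3.29), AT5G53260 (3.27), AT2G18540 (3.19) and AT2G42560 (3.09), with adjusted p-values of 0.000209 to 0.00848. AT2G17680, AT5G53260 and AT1G78500 differed by 1.76, 1.60 and 1.74 with normexp background correction.

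The 15 largest falls ran from -3.99 to -5.55, against 2.98 to 4.16 for the rises. *ESM1* (AT3G14210), a modifier of glucosinolate breakdown, read 9.62, 8.34 and 8.31 in iU1-52, against 14.25, 14.23 and 14.43 in Col-0, a fall of 5.55 ± 0.35 on the log2 scale (adjusted p = 0.000288). *PEPC1* (AT1G17710), a phosphoethanolamine and phosphocholine phosphatase, read 6.87, 5.77 and 5.58 in iU1-52, against 11.28, 10.38 and 11.02 in Col-0, and fell by 4.82 ± 0.39. *FBA5* (AT4G26530), a fructose-bisphosphate aldolase, read 8.84, 7.46 and 5.91 in iU1-52, against 12.17, 12.37 and 11.996 in Col-0, and fell by 4.78 ± 0.68. In each of these genes the iU1-52 array of replicate 1 was the highest of its line and still lay below every Col-0 array.

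Among the other large falls, *LHCB2.3* (AT3G27690), a light-harvesting protein of photosystem II, read 6.37, 7.09 and 6.23 in iU1-52, against 10.61, 10.52 and 10.64 in Col-0, and fell by 4.03 ± 0.23 (adjusted p = 0.000203). *CA2* (AT5G14740), a carbonic anhydrase, read 12.70, 12.49 and 11.31 in iU1-52, against 16.17, 16.33 and 16.18 in Col-0, and fell by 4.06 ± 0.35. *BBX17* (AT1G49130) and *BBX14* (AT1G68520), B-box zinc finger proteins, fell by 4.54 ± 0.44 and 4.14 ± 0.26. *AIG1* (AT1G33960), first found as a gene induced by a bacterial effector, fell by 4.50 ± 0.25, *RLM3* (AT4G16990), a TIR-domain protein of fungal resistance, by 4.26 ± 0.17, and *NEET* (AT5G51720), an iron-sulfur protein, by 3.99 ± 0.41. AT2G21210, annotated as SAUR6 of the small auxin-upregulated RNAs, fell by 4.03 ± 0.32. The remaining loci, AT3G05730 (-5.19), AT5G48490 (-4.82), AT1G23130 (-4.71) and AT1G21500 (-4.29), have no name in the annotation. All 15 had adjusted p-values of 0.000163 to 0.00348, and the lack of overlap between the lines was a condition of their choice.

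**Figure D2:**
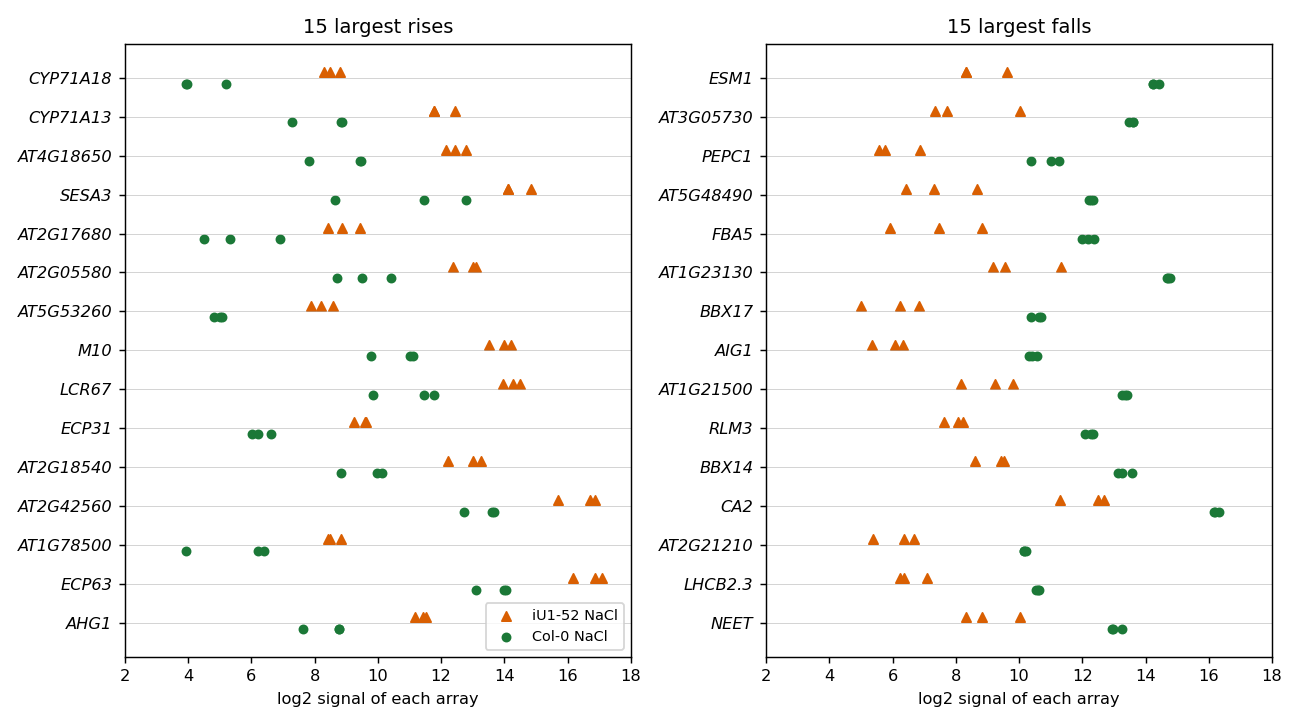
Signal of each array (x axis, log2) for the 15 largest rises (left) and 15 largest falls (right) among loci above background on all 6 arrays, with iU1-52 as orange triangles above Col-0 as green circles. The 30 loci were chosen among those whose lines do not overlap. The Col-0 points of several rises are spread out, with replicate 1 lowest, as in *SESA3* (8.64 against 12.78 and 11.46).

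Some transcripts were above background in 1 line only, for which a difference has just a lower bound. The bound sets the brighter line's mean against the dimmest signal of any feature that was well above background on the array. A spot can lie above that signal and still not be well above background itself, as AT1G07450 did on iU1-52 replicate 1 (4.59). The folds given as at least a value therefore hold for this limit only and may be too large. Of the called features, 12 had a signal well above background on each iU1-52 array and on no Col-0 array, and 69 on each Col-0 array and on no iU1-52 array. The plant defensin *PDF1.2* (AT5G44420) was at least 15.4-fold higher in iU1-52 (adjusted p = 0.000481), and *CYP82C2* (AT4G31970), a cytochrome P450 of indole defence compounds, at least 10.4-fold (adjusted p = 0.00093). The unnamed loci AT3G54550, AT1G32710 and AT1G26400 were at least 13.3-, 11.1- and 10.7-fold higher. On the other side, AT1G31690 was at least 26.8-fold lower in iU1-52 (adjusted p = 0.000648), AT1G23110 at least 17.9-fold, AT1G30250 at least 16.1-fold, AT1G07450 at least 14.2-fold and AT3G14820 at least 11.9-fold. These sizes depend on how the background is treated. With normexp background correction the fitted differences were 0.84 (*CYP82C2*) to 1.26 (*PDF1.2*) for the 5 rises and -2.19 (AT1G31690) to -1.43 (AT1G07450) for the 5 falls, and the calls of *CYP82C2* and AT1G26400 were lost. It moved the difference of 27 of the 142 called genes named by the rule by over 1.5 times.

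A few large falls were above background on only some of the iU1-52 arrays and were chosen for mention after their values were seen. *PAP14* (AT2G46880), a purple acid phosphatase, read 6.89, 1.61 and 1.66 in iU1-52, against 11.44, 11.62 and 11.16 in Col-0 and was well above background on 1 of the 3 iU1-52 arrays, that of replicate 1. *ESP* (AT1G54040), the epithiospecifier protein that steers glucosinolates towards nitriles, read 9.66, 6.65 and 2.91 in iU1-52, against 14.03, 13.83 and 13.91 in Col-0 and was above background on 2 of the 3. The fitted differences of -8.02 ± 1.39 and -7.51 ± 1.55 (adjusted p = 0.00697 and 0.0129) therefore rest on signals without a measured level.

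Genes of ABA rose at several levels of the pathway, from synthesis to the transcription factors. Of 12 genes of ABA synthesis and breakdown, 6 (50%) were higher and 0 lower, against 5.20% and 5.59% over all features. Their median difference was 0.94, against 0.05 over all features. *NCED3* (AT3G14440), whose enzyme cleaves carotenoids in the step that limits ABA synthesis, read 9.39, 9.24 and 9.51 in iU1-52, against 7.03, 7.76 and 7.72 in Col-0, a rise of 1.88 ± 0.21 (adjusted p = 0.00154). *NCED9* (AT1G78390), its relative of the seed, rose by 1.30 ± 0.12, and *CYP707A1* (AT4G19230), an ABA 8'-hydroxylase that breaks the hormone down, by 1.22 ± 0.14. Genes of synthesis and of breakdown were thus among the rises. With normexp background correction *NCED9* was not called (0.86). *ABA1*, the zeaxanthin epoxidase, differed by 0.89 (adjusted p = 0.00148) and *ABA2*, which makes abscisic aldehyde, by -0.33 (adjusted p = 0.0261), both under 2-fold.

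The receptors and the phosphatases they inhibit differed in direction. Of 9 ABA receptors, 0 were higher and 2 lower, *PYL8* (AT5G53160) by 1.06 ± 0.13 and *PYL1* (AT5G46790) by 1.004 ± 0.24, with a median of -0.09. Both lay near 2-fold, and 0 or 1 of them was called when any array but iU1-52 replicate 1 was left out. Of 9 clade A protein phosphatases 2C, which switch the pathway off and are themselves induced by ABA, 5 were higher and 0 lower, with a median of 1.03. Besides *AHG1*, *HAI3* (AT2G29380) read 12.64, 12.27 and 11.997 in iU1-52, against 9.62, 9.64 and 10.28 in Col-0, a rise of 2.45 ± 0.24, and *HAI2* (AT1G07430) rose by 2.05 ± 0.34, a call that was lost in the fit of 12 arrays and with group weights. *ABI1* and *PP2CA* differed by 0.74 and 0.73 (adjusted p = 0.0246 and 0.008), under 2-fold. When Col-0 replicate 1 was left out, in the fit of 12 arrays and with group weights, 3 phosphatases were called.

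Of 10 ABA kinases and transcription factors, 3 were higher and 0 lower, with a median of 0.52, and these were the factors that carry ABA signals in seeds. *ABI5* (AT2G36270), a bZIP factor that arrests growth after germination, read 13.50, 13.83 and 14.09 in iU1-52, against 11.04, 11.82 and 11.67 in Col-0, a rise of 2.30 ± 0.25 (adjusted p = 0.0013). *ABI3* (AT3G24650), a B3 factor of seed maturation, read 11.67, 11.95 and 12.29 in iU1-52, against 9.40, 10.10 and 10.10 in Col-0, a rise of 2.10 ± 0.24 (adjusted p = 0.00165). *ABI4* (AT2G40220), an AP2 factor, rose by 1.90 ± 0.16. In all 3 genes every iU1-52 array lay above every Col-0 array, and without salt the lines differed by -0.21, 0.04 and -0.32. The kinase *OST1* and the factor *ABF3*, which act in growing tissue, differed by 0.53 and 0.96 (adjusted p = 0.00913 and 0.0281) and did not reach 2-fold.

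**Figure D3:**
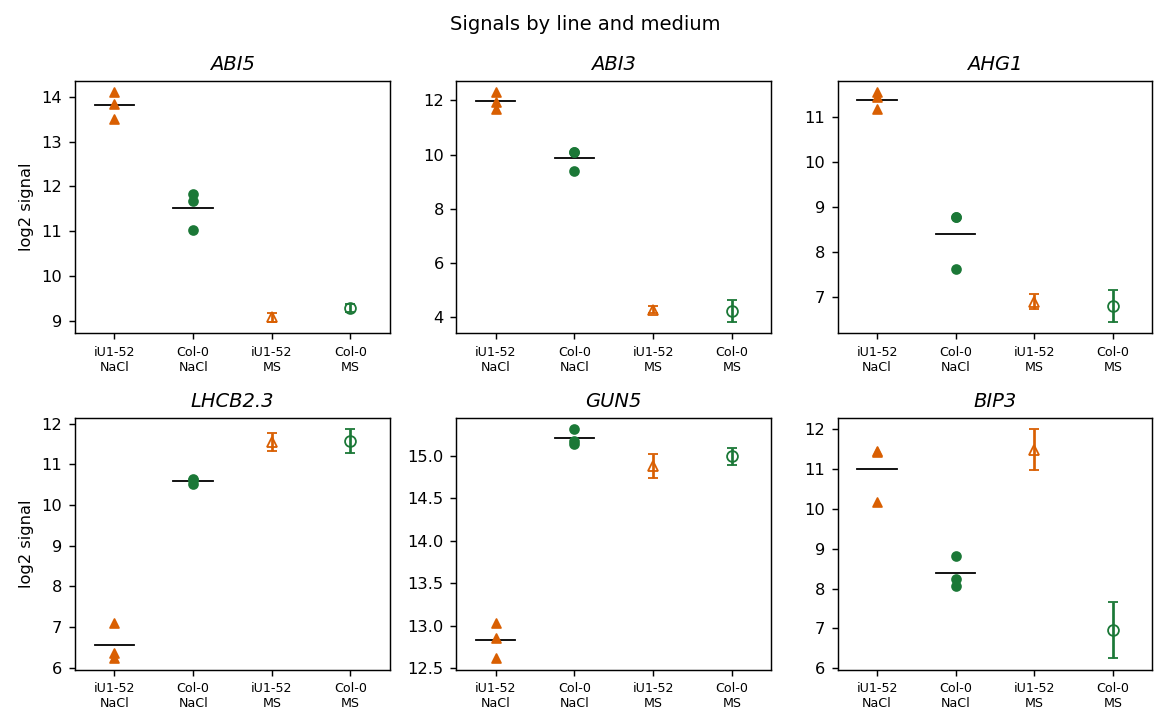
Log2 signal (y axis) of 6 genes on salt, with each array as a point and the mean as a line, and without salt, with the mean ± SD as an open symbol (n = 3 arrays a group), iU1-52 in orange and Col-0 in green. *ABI5*, *ABI3* and *AHG1* are higher and *LHCB2.3* and *GUN5* lower in iU1-52 on salt with the lines close together without salt, and *BIP3* is higher in iU1-52 on both media.

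The stores of the seed were higher in iU1-52 throughout. All 9 seed storage proteins were called higher, with a median difference of 2.57, and all 8 proteins of the oil body, with a median of 2.25. *PAP85* (AT3G22640), a vicilin-like protein, read 15.78, 16.03 and 16.49 in iU1-52, against 12.27, 13.67 and 13.42 in Col-0, a rise of 2.98 ± 0.39 (adjusted p = 0.0025). *CRU2* (AT1G03880), a 12S cruciferin, read 13.72, 13.25 and 13.65 in iU1-52, against 9.24, 11.83 and 10.88 in Col-0, a rise of 2.89 ± 0.62 (adjusted p = 0.0146). Every iU1-52 array lay above every Col-0 array in these genes, and among the Col-0 arrays replicate 1 was the lowest. The mean level of the 9 storage proteins was 15.56, 15.36 and 15.59 in iU1-52, against 11.72, 13.88 and 13.21 in Col-0, and without salt it was 2.86 in iU1-52 and 2.85 in Col-0. The albumins *SESA1* to *SESA4* are alike in sequence and cross-hybridisation between them was not tested. With iU1-52 replicate 3 left out, 4 of the 9 storage proteins were called, and with iU1-52 replicate 1 left out 7 were. Weights that let the lines differ in spread left 3 of the 9.

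Among the oil body proteins, *HSD1* (AT5G50600), a steroleosin, read 15.67, 15.70 and 16.03 in iU1-52, against 12.62, 13.50 and 12.94 in Col-0, a rise of 2.78 ± 0.24 (adjusted p = 0.000671). The oleosin *OLEO3* (AT5G51210) rose by 2.50 ± 0.41 and *OBAP1A* (AT1G05510), an oil body-associated protein, by 2.43 ± 0.20. The 8 differences ran from 1.88 to 2.78, and all 8 were called also without iU1-52 replicate 1. Of the 20 late embryogenesis abundant proteins, which protect dry tissue, 13 were higher and 1 lower, with a median of 1.68. The 3 largest rises were those of *M10*, *ECP31* and *ECP63*. The 1 fall was that of *COR15B* (AT2G42530), a cold-regulated chloroplast protein, which read 10.25, 9.75 and 9.60 in iU1-52, against 12.55, 12.37 and 12.60 in Col-0, and fell by 2.64 ± 0.18 (adjusted p = 0.000366). The dehydrins *COR47* and *ERD10* differed by 0.30 and 0.25 (adjusted p = 0.257 and 0.358).

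The list of regulators and repressors of the embryo program held 12 genes, 11 with a probe, of which 7 passed the filter on dim probes. Of those 7, 2 (28.6%) were higher and 0 lower, against 5.20% higher over all features, with a median of 0.38. *EEL* (AT2G41070), a bZIP factor of late embryos, rose by 1.32 ± 0.19. *FUS3* (AT3G26790), a B3 factor of seed maturation, read 6.06, 6.54 and 6.44 in iU1-52, against 4.87, 5.41 and 4.89 in Col-0, a rise of 1.29 ± 0.20, and fell under 2-fold with other scaling, background correction or filters (0.48 to 0.95). *PKL*, a chromatin remodeller that represses embryo genes, differed by 0.38 (adjusted p = 0.283).

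Genes that hold back germination rose beside 1 that makes gibberellin. Of 21 genes of gibberellin and germination control, 5 were higher and 1 lower, with a median of 0.49. *SOM* (AT1G03790), a zinc finger protein that represses germination, read 12.50, 13.03 and 13.16 in iU1-52, against 9.82, 10.26 and 10.63 in Col-0, a rise of 2.66 ± 0.26 (adjusted p = 0.000952). *RGL3* (AT5G17490), a DELLA repressor of gibberellin responses, rose by 1.86 ± 0.16, and *GA3OX2* (AT1G80340), an oxidase that makes active gibberellin, by 1.78 ± 0.21. *GASA6* (AT1G74670), a gibberellin-regulated gene, read 10.69, 10.70 and 10.03 in iU1-52, against 13.27, 13.25 and 13.07 in Col-0, and fell by 2.73 ± 0.20 (adjusted p = 0.000431). The DELLA genes *RGA* and *GAI* differed by -0.18 and 0.31 (adjusted p = 0.216 and 0.0661).

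Genes that use up the stored oil mostly had positive differences under 2-fold. Of 15 genes of oil breakdown and the glyoxylate cycle, 14 had a positive difference, 3 were called higher and 1 lower, with a median of 0.79. The malate synthase *MLS* (AT5G03860) read 17.25, 17.35 and 17.57 in iU1-52, against 15.38, 15.89 and 15.95 in Col-0, a rise of 1.65 ± 0.18, *MFP2* (AT3G06860) of beta-oxidation rose by 1.45 ± 0.13 and *CSY3* (AT2G42790), a peroxisomal citrate synthase, by 1.21 ± 0.12. *PMDH2* (AT5G09660), a peroxisomal malate dehydrogenase, fell by 1.40 ± 0.16. *SDP1*, the lipase that starts oil breakdown, and *ICL*, the isocitrate lyase, differed by 0.70 and 0.38 (adjusted p = 0.0209 and 0.0125). Without iU1-52 replicate 1, 6 of the 15 were called higher.

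Protective and stress genes of drought, heat and low oxygen rose in part. Of 13 drought and cold response genes, 9 were higher and 1 lower, with a median of 1.32. *HB12* (AT3G61890), a homeodomain factor induced by ABA, read 14.31, 15.13 and 14.63 in iU1-52, against 12.40, 13.02 and 13.07 in Col-0, a rise of 1.86 ± 0.27, *RD29A* (AT5G52310), a desiccation-responsive gene, rose by 1.82 ± 0.23 and *DREB2A* (AT5G05410), a drought and heat factor, by 1.81 ± 0.15. The 1 fall, that of the caleosin *RD20* (AT2G33380) by 1.02, was lost without iU1-52 replicate 1 or Col-0 replicate 2 or 3. Of 11 genes of raffinose and proline synthesis, 4 were higher and 0 lower, with a median of 0.49, led by the galactinol synthase *GOLS2* (AT1G56600, 1.64 ± 0.26), and 2 were with normexp background correction. *P5CS1*, which makes proline under salt, differed by -0.24 (adjusted p = 0.48). Of 10 hypoxia response genes, 4 were higher and 0 lower, among them the pyruvate decarboxylase *PDC1* (AT4G33070, 1.77 ± 0.29). Of 7 genes of sodium transport, 0 were higher and 0 lower. Under an adjusted p of 0.05 alone there were 2, against 5673 of all 23942 features. The exporter *SOS1* differed by 0.22 (adjusted p = 0.192).

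Most heat shock genes rose. Of 16 heat shock factors and proteins, 11 were higher and 0 lower, with a median of 1.57, which was 0.96 with normexp background correction. *HSP17.6II* (AT5G12020), a small heat shock protein, read 7.74, 7.84 and 8.41 in iU1-52, against 6.06, 5.87 and 5.50 in Col-0, a rise of 2.19 ± 0.22 (adjusted p = 0.00115). *ATHSP22.0* (AT4G10250) and the chloroplast protein *HSP21* (AT4G27670) had fitted differences of 4.10 and 3.60, and each was well above background on 2 of the 3 Col-0 arrays. The differences of *HSP17.6II*, *ATHSP22.0* and *HSP21* were 1.28, 1.39 and 1.51 with normexp background correction. *HSFA9* (AT5G54070), a heat shock factor of the seed chosen for mention after its value was seen, read 7.21, 7.33 and 7.33 in iU1-52, against 5.53, 5.39 and 5.50 in Col-0, a rise of 1.81 ± 0.09. *HSP90.1* differed by 0.62 (adjusted p = 0.0878).

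Genes of ER folding and the unfolded protein response rose in part, and 3 of them were higher without salt too. All 24 genes of ER folding and the unfolded protein response had a positive difference on salt, 8 were called higher and 0 lower, with a median of 0.69. *TIN1* (AT5G64510), induced by the glycosylation inhibitor tunicamycin, read 10.53, 10.94 and 10.67 in iU1-52, against 7.99, 7.74 and 7.69 in Col-0, a rise of 2.91 ± 0.14 (adjusted p = 0.000184). *BIP3* (AT1G09080), an inducible binding protein of the ER, read 10.16, 11.44 and 11.42 in iU1-52, against 8.82, 8.07 and 8.25 in Col-0, a rise of 2.63 ± 0.39 (adjusted p = 0.00389). *TMS1* (AT3G08970), an ER DnaJ protein, rose by 2.46 ± 0.22. In all 3 the lines did not overlap, and these were the 3 members called without salt, where they were higher in iU1-52 by 1.42, 4.53 and 1.13 (adjusted p = 0.0028, 0.00175 and 0.0412). The sensors *IRE1A* and *BZIP28* differed by 0.41 and 0.58 on salt (adjusted p = 0.115 and 0.0413). *BIP1* and *BIP2* share most of their sequence, and their probes may read both transcripts, which was not tested. Of 7 genes of N-glycan assembly and transfer, 0 were higher and 0 lower, with differences of 0.03 to 0.45. Under an adjusted p of 0.05 alone there were 2, against 5673 of all 23942 features.

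Genes of the photosynthetic apparatus fell almost without exception. Of 18 light-harvesting proteins 17 were lower and 0 higher, with a median of -2.38, and of 18 photosystem subunits 18 were lower, with a median of -2.16. After *LHCB2.3*, the light-harvesting genes with the largest falls were *LHB1B1* (AT2G34430), which read 13.87, 13.65 and 12.33 in iU1-52, against 16.82, 17.49 and 17.49 in Col-0, and fell by 3.98 ± 0.43, and *LHCB2.2* (AT2G05070), which fell by 2.83 ± 0.21. *LHCB4.3*, the 1 member that was not lower, differed by 0.10 (adjusted p = 0.504). *PSAH2* (AT1G52230), a small subunit of photosystem I, read 11.13, 10.46 and 10.02 in iU1-52, against 13.90, 13.86 and 13.88 in Col-0, and fell by 3.35 ± 0.27 (adjusted p = 0.000557). *PSAN* (AT5G64040) and *PSAK* (AT1G30380), also of photosystem I, fell by 3.20 ± 0.37 and 2.85 ± 0.25. The mean level of the 18 photosystem subunits was 14.56, 14.30 and 14.10 in iU1-52, against 16.61, 16.60 and 16.67 in Col-0, and without salt 17.07 in iU1-52 and 17.06 in Col-0. The lines lay apart on salt and level without it. Members of the *LHCB1* group are near-identical in sequence, and a probe may read more than 1 of them.

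Genes of carbon fixation fell in part. Of 18 Calvin cycle genes 10 were lower and 0 higher, with a median of -1.47. *CP12-2* (AT3G62410), a regulator of the cycle, read 9.45, 8.68 and 8.24 in iU1-52, against 12.09, 12.08 and 11.74 in Col-0, and fell by 3.18 ± 0.30, *RCA* (AT2G39730), rubisco activase, fell by 2.45 ± 0.11 and *GAPA-2* (AT1G12900), a chloroplast glyceraldehyde-phosphate dehydrogenase, by 2.25 ± 0.14. The small subunits of rubisco did not reach 2-fold, with *RBCS1A* at -0.23 (adjusted p = 0.069) and *RBCS2B* at -0.81 (adjusted p = 0.00107), and these copies are near-identical in sequence. Of 8 photorespiration genes 5 were lower and 0 higher, with a median of -1.46, led by the aminotransferase *AGT* (AT2G13360, -2.19 ± 0.13).

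Chlorophyll synthesis and breakdown moved in opposite directions. Of 20 genes 11 were lower and 2 higher, with a median of -1.15. *GUN5* (AT5G13630), a subunit of the magnesium chelatase, read 12.62, 13.04 and 12.85 in iU1-52, against 15.14, 15.17 and 15.31 in Col-0, and fell by 2.37 ± 0.13 (adjusted p = 0.000195). *CRD1* (AT3G56940), of the cyclase step, fell by 2.03 ± 0.09, and *PORC* (AT1G03630), a protochlorophyllide reductase, by 1.76 ± 0.16. The 2 rises were those of *NYE2* (AT4G11910) and *NYE1* (AT4G22920), which start chlorophyll breakdown, by 1.61 ± 0.18 and 1.43 ± 0.18. Of 8 regulators of photosynthetic genes 0 were higher and 0 lower, with 3 under an adjusted p of 0.05 alone, against 5673 of all 23942 features. The factors *GLK1* and *GLK2* differed by -0.66 and -0.60 (adjusted p = 0.0595 and 0.0124).

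**Figure D4:**
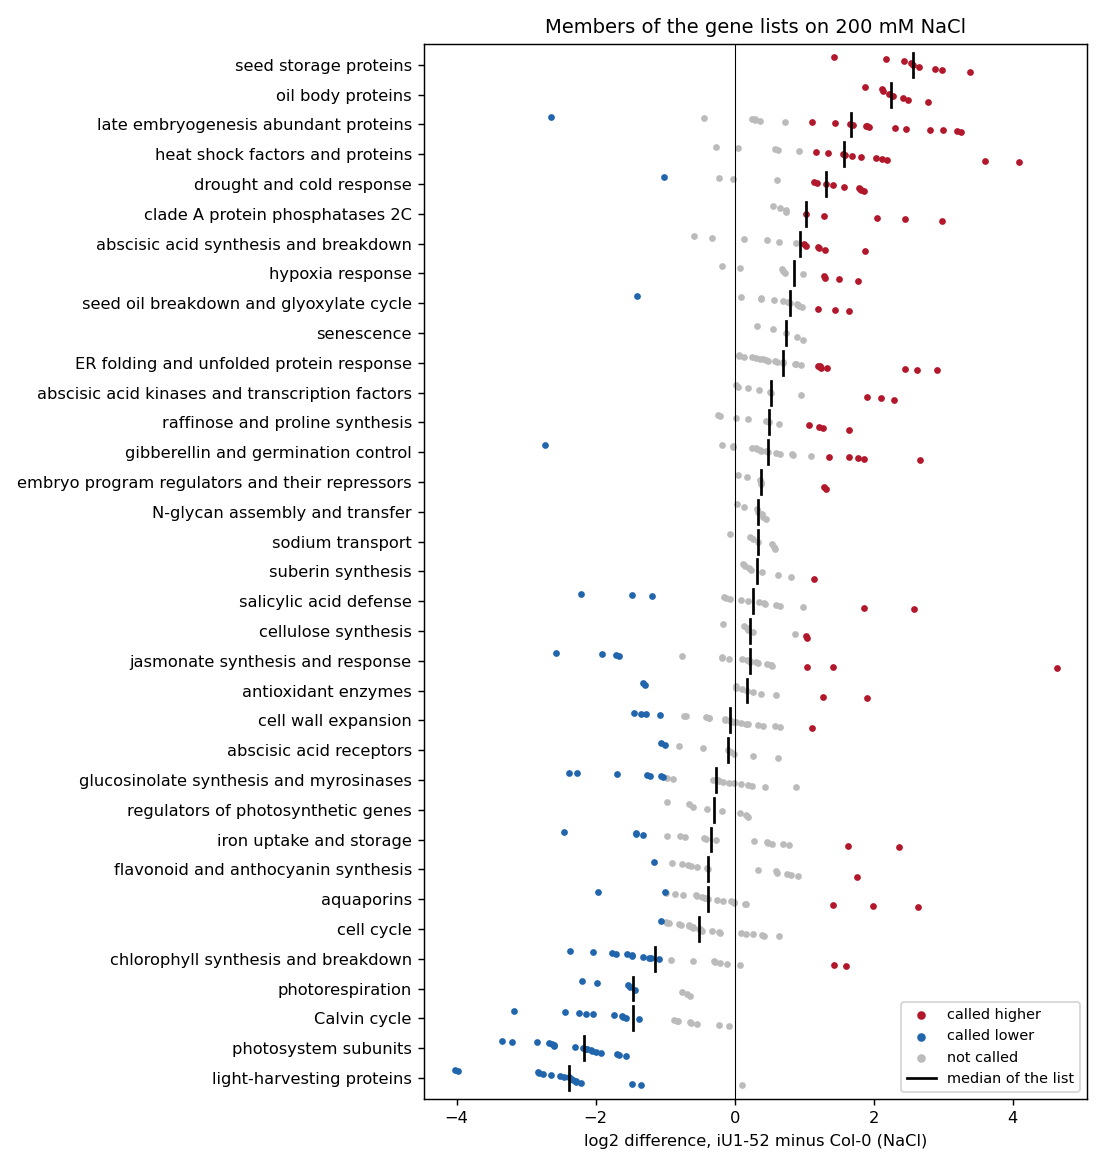
Difference between iU1-52 and Col-0 on 200 mM NaCl (x axis, log2) for each member of the gene lists (y axis, ordered by median), with called members in red (higher) and blue (lower), others in grey, and the median of each list as a black line. Seed storage proteins (median 2.57) and oil body proteins (2.25) stand at one end, light-harvesting proteins (-2.38) and photosystem subunits (-2.16) at the other, and the median over all features is 0.05.

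Lists of growth differed in their shares of calls, against 5.20% higher and 5.59% lower over all features. Of 24 cell cycle genes 0 were higher and 1 lower, with a median of -0.51. A further 17 had an adjusted p under 0.05 and a difference under 2-fold, against 5673 of all 23942 features. The 1 call was the mitotic cyclin *CYCB1;1* (AT4G37490, -1.06 ± 0.12), and *CDKA;1*, the main cell cycle kinase, differed by 0.09 (adjusted p = 0.424). Of 23 genes of cell wall expansion 1 was higher and 4 (17.4%) lower, with the hydrolase *XTH9* (AT4G03210, -1.46 ± 0.35) and the expansins *EXPA6* (AT2G28950, -1.34 ± 0.12) and *EXPA10* (AT1G26770, -1.28 ± 0.15) as the largest falls. Of 21 aquaporins 3 (14.3%) were higher and 2 (9.52%) lower, and the rises were led by *BETA-TIP* (AT1G17810, 2.63 ± 0.22) and *TIP3;1* (AT1G73190, 1.99 ± 0.21), the vacuolar aquaporins of seeds, against a fall of 1.97 ± 0.15 in *PIP2;6* (AT2G39010), an aquaporin of the plasma membrane. Several of these counts turned on 1 array. The cell cycle count was 4 without iU1-52 replicate 1, 0 without iU1-52 replicate 2 and 2 without Col-0 replicate 2. The 1 cell wall rise, that of *EXPA2* (1.11), was lost without iU1-52 replicate 1, and the cell wall falls numbered 2 when iU1-52 replicate 2 or Col-0 replicate 1 was left out. The aquaporin falls numbered 4 without iU1-52 replicate 2 and 1 without iU1-52 replicate 1, Col-0 replicate 2 or Col-0 replicate 3. The 2 genes called higher among 8 of cellulose synthesis, *CESA8* (1.04) and *CESA7* (1.03) of the secondary wall, lay at 2-fold and lost their calls when iU1-52 replicate 2 or 3 or Col-0 replicate 1 was left out and with normexp, and of 8 suberin genes 1 was higher, *FAR1* (AT5G22500, 1.15 ± 0.12), and 2 were without iU1-52 replicate 1.

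Genes of defence were mixed in direction. Of 21 genes of jasmonate synthesis and response 3 (14.3%) were higher and 4 (19%) lower, against 5.20% and 5.59% over all features, with a median of 0.22. *LOX2* (AT3G45140), a chloroplast lipoxygenase of jasmonate synthesis, read 13.23, 14.60 and 13.60 in iU1-52, against 16.59, 16.21 and 16.36 in Col-0, and fell by 2.58 ± 0.34 (adjusted p = 0.00275). *AOC2* (AT3G25770), an allene oxide cyclase, fell by 1.91 ± 0.21 and the storage protein *VSP2* (AT5G24770) by 1.71 ± 0.23. These stood against the rises of *PDF1.2*, *TAT3* (AT2G24850, 1.41 ± 0.35) and *LOX3* (AT1G17420, 1.04 ± 0.27), of which only *PDF1.2* was called without Col-0 replicate 1 or 3. Of 16 salicylic acid defence genes 2 (12.5%) were higher and 3 (18.8%) lower, with a median of 0.27. *NIMIN1* (AT1G02450), which binds the receptor NPR1, and the monooxygenase *FMO1* (AT1G19250) rose by 2.58 ± 0.30 (1.03 with normexp) and 1.86 ± 0.31, and the glucanase *PR2* (AT3G57260) read 10.29, 10.02 and 10.004 in iU1-52, against 12.10, 12.43 and 12.43 in Col-0, and fell by 2.22 ± 0.14.

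Of 20 genes of glucosinolate synthesis and myrosinases 0 were higher and 7 lower, with a median of -0.27. The myrosinase *TGG2* (AT5G25980), which cleaves glucosinolates, read 11.23, 11.01 and 11.40 in iU1-52, against 13.55, 13.50 and 13.73 in Col-0, and fell by 2.39 ± 0.13. *MYB29* (AT5G07690), a factor of the aliphatic branch, fell by 2.27 ± 0.17 and *CYP79F1* (AT1G16410), the first enzyme of that branch, by 1.70 ± 0.21. The indole branch gene *CYP79B2* differed by 0.89 (adjusted p = 0.0158) and its factor *MYB34* by -0.01 (adjusted p = 0.961). *CYP79B2* did not overlap between the lines and was called higher without iU1-52 replicate 1.

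Of 18 iron genes 2 (11.1%) were higher and 4 (22.2%) lower, with a median of -0.34. The root ferric reductase *FRO2* (AT1G01580) read 10.60, 10.69 and 11.16 in iU1-52, against 7.76, 8.71 and 8.89 in Col-0, a rise of 2.36 ± 0.32, and *FER2* (AT3G11050), the ferritin of seeds, rose by 1.64 ± 0.21. *BHLH100* (AT2G41240), an iron deficiency factor, fell by 2.45 ± 0.62 (1.09 with normexp), with 1 or 2 of the 4 iron falls still called when any array but iU1-52 replicate 1 was left out. Of 15 flavonoid genes 1 (6.67%) was higher, the anthocyanin factor *PAP2* (1.76 ± 0.34), and 1 (6.67%) lower, the repressor *MYBL2* (-1.16 ± 0.15, 2 lower without iU1-52 replicate 1). These shares are near the 5.20% higher and 5.59% lower over all features. Of 11 antioxidant enzymes 2 were higher and 2 lower. Among the antioxidant enzymes *PER1* (AT1G48130), a peroxiredoxin of seeds, rose by 1.90 ± 0.15 and *CAT2* (AT4G35090), a catalase, by 1.27 ± 0.20, and *TAPX* (AT1G77490), the thylakoid ascorbate peroxidase, fell by 1.32 ± 0.09. Of 5 senescence genes 0 were higher and 0 lower, and 2 were higher when iU1-52 replicate 1 was left out. Under an adjusted p of 0.05 alone there were 2, against 5673 of all 23942 features.

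Of the lists of tissue markers, that of epidermis and stomata held more than 1 called gene. Of 13 root markers 1 was higher (7.69%, near the 5.20% over all features), with a median of 0.32. This was the auxin carrier *PIN2* (AT5G57090, 1.01 ± 0.15). The count was 2 without iU1-52 replicate 1 and 0 without iU1-52 replicate 3 or Col-0 replicate 1. The mean level of the root markers was 10.72, 11.03 and 11.13 in iU1-52, against 10.54, 10.57 and 10.63 in Col-0. Of 8 markers of the shoot apex and leaf primordium 0 were higher and 0 lower, with a median of -0.02. Of 7 markers of epidermis and stomata 3 were lower, *MUTE* (AT3G06120, -1.49 ± 0.35), *FAMA* (AT3G24140, -1.41 ± 0.20) and *EPF2* (AT1G34245, -1.34 ± 0.30), which belong to the stomatal lineage, and 1 was when any Col-0 array or iU1-52 replicate 3 was left out and with normexp background correction. Of 7 genes used as references for expression 0 were higher and 0 lower, with differences of -0.46 to 0.42. The part of tissue proportions in the other results was not tested.

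The difference between the lines on salt was then set beside that without salt. The salt arrays of both lines enter the comparison on salt and the interaction alike, so that the values are given side by side. The interaction, which asks whether the difference between the lines was itself different on salt, was called for 2281 features, 9.53% of those tested, with 1021 positive and 1260 negative. Of the 2583 features called on salt, 2032 were also called in the interaction with the same sign, and these had been chosen on the difference on salt. Of the 2583, 38 were called without salt, 35 of them with the same sign. The photosystem and light-harvesting lists had medians of 0.01 and -0.00 without salt, and 18 of 18 and 17 of 18 of their members were called in the interaction. The seed storage and oil body lists had medians of -0.03 and -0.05 without salt, with 5 of 9 and 8 of 8 members called in the interaction. Their mean levels without salt were low, at 2.86 (transgenic line) and 2.85 (Col-0) for storage proteins and 4.10 and 4.07 for oil body proteins. The photosystem list had 17.07 and 17.06. Whether the low signals lay above background is not given here, so these medians cannot tell equal levels from signals too low to measure. The jasmonate list had a median of 0.61 without salt and the ER list one of 0.18, with 5 of 21 and 5 of 24 members called in the interaction. In the jasmonate list this was positive for *PDF1.2* (4.29) and negative for *LOX2* (-3.51), *VSP2*, *VSP1* and *AOC2*. The mean of *PDF1.2* was 10.56 in iU1-52 and 10.21 in Col-0 without salt, and 7.11 and 2.47 on salt, lower in both lines. Its Col-0 signals on salt were not above background, so that the size of 4.29 is uncertain. In the ER list the interaction was positive for *TIN1* (1.49), *TMS1*, *BIP1* and *SHD* and negative for *BIP3* (-1.90, adjusted p = 0.0417), whose difference between the lines was smaller on salt.

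The 3 loci called in opposite directions on the media were AT3G28220, AT5G24200 and AT1G66100, which have no name in the annotation. AT3G28220 read 11.87, 12.42 and 11.52 in iU1-52, against 14.36, 14.50 and 14.12 in Col-0 on salt, a fall of 2.39 ± 0.24 (adjusted p = 0.00105), and was higher in iU1-52 by 2.24 without salt (adjusted p = 0.0227). AT5G24200 fell by 1.57 ± 0.09 on salt and was higher by 1.60 without it, and AT1G66100 fell by 1.81 ± 0.22 on salt and was higher by 1.15 without it. In all 3 the lines did not overlap on salt. With normexp background correction the falls on salt of AT5G24200 (-0.95) and AT1G66100 (-0.72) were under 2-fold.

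**Figure D5:**
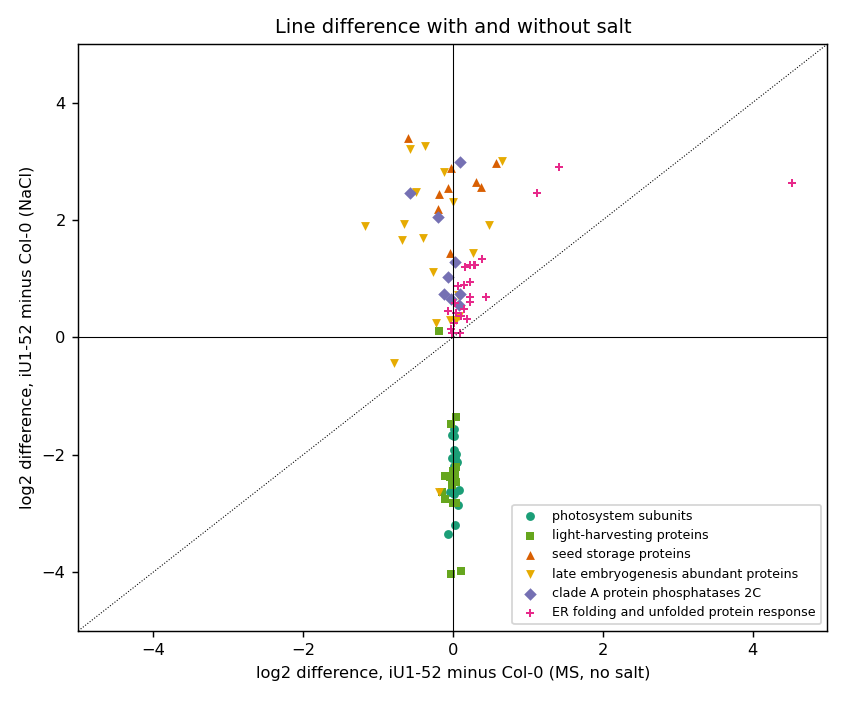
Difference between iU1-52 and Col-0 on 200 mM NaCl (y axis, log2) against that without salt (x axis, log2) for the members of 6 lists, with equal differences on the dotted line. Most points lie near 0 on the x axis, with the photosynthetic genes other than *LHCB4.3* (0.10 on salt) below 0 and all 9 seed storage proteins above 0 on the y axis, and *BIP3* lies furthest to the right (4.53 without salt, 2.63 on salt).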

How the data were processed

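RNA of whole seedlings was hybridised to 1-colour Agilent arrays, and the authors deposited the scanner output of Feature Extraction 10.7.1.1, whose processed signal is a background-corrected Cy3 intensity per spot that is not yet normalized between arrays. Control spots and spots marked as outliers were left out, spots of 1 probe were averaged, and probes under 100 on all 12 arrays were removed, as in the study's methods. The rest were quantile normalized over the 12 arrays and taken to log2. Of 43603 probes, 34340 were matched by accession to 1 locus of the TAIR10.1 annotation, from which the names were taken, and the brightest probe stood for a locus. A probe not well above background on any array of a line has only a bound there. The quoted bound is the brighter line's mean over the higher, per array, of the dimmest signal well above background and the probe's own.

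The 6 salt arrays were fitted in R 4.3.3 by lmFit and eBayes of limma 3.58.1, with line as the only term, a fit of all 12 arrays gave the differences without salt and the interaction, and p-values were adjusted by Benjamini-Hochberg over all features. The fit was first checked on simulated arrays in which known changes had been placed. The number of arrays limits the precision, with a median standard error of 0.13 on the log2 scale. Replicate numbers name the slide. The deviations of same-numbered arrays from their group means correlated at 0.10, 0.01 and 0.21, so that the numbers were not taken to pair the samples.

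Alternatives were 75th percentile scaling, normexp background correction with an offset of 50, removing no dim probes, keeping only probes with signal well above background, all 12 arrays in the fit, group weights, array weights, a replicate block, averaging the probes of a locus, testing every probe separately, either criterion alone, a 2-way ANOVA over the 12 arrays as in the methods, and leaving out each array. Genes were named by a rule of the target pathway, the 15 largest rises and falls above background on all 6 arrays without overlap, up to 3 called members in each direction and 2 other members per list, the 5 largest bounds in each direction and loci called in opposite directions without salt, and exceptions are marked. The comparison, the lists and the rule were chosen with earlier results of these data known. Lists are described by counts and medians, with no set test. No sequences are given.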

Additional observations from a re-analysis of the deposited data

Results flagged for a closer look

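The hexosamine genes with *SEC* and *SPY*, the 15 largest rises, the 15 largest falls and the loci called in opposite directions were looked up for a difference between iU1-52 and Col-0 that was itself different on salt, by the interaction in limma (difference on salt minus difference without it, adjusted p under 0.05). Those that had one are given here. Over all features the interaction was called, at 2-fold or more, for 2281. The rises and falls were chosen on their difference on salt, and the Col-0 and iU1-52 salt arrays enter both values. With 3 arrays a group, single outlying arrays were not tested for.

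In the hexosamine pathway the interaction was 0.68 for *GFAT* (adjusted p = 0.00084) and 0.31 for *DRT101* (0.0235). It was 0.57 for the O-glycosyltransferase *SPY* (0.0237), listed with them. Each was under 2-fold, and the differences on salt were positive in all 3.

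Among the largest rises the interaction was 2.07 for *CYP71A18* (adjusted p = 0.0106), which was higher in iU1-52 on both media. It was 3.99 for the albumin *SESA3*, 3.63 for *M10*, 3.77 for *ECP31* and 2.35 for *ECP63* of the late embryogenesis proteins, 2.89 for the phosphatase *AHG1* and 3.52 for the defensin *LCR67*. It was 2.95 for the triterpene synthase AT1G78500, 3.46 for AT4G18650, 3.46 for AT2G17680, 3.47 for AT2G05580, 3.38 for AT5G53260 and 3.26 for AT2G18540. The adjusted p of these 13 ran from 0.000398 to 0.0274. Without salt the mean signals of several were very low, as in *ECP31* (1.82 in iU1-52 and 2.39 in Col-0) and *SESA3* (2.89 and 3.49). Whether such signals lay above background is not given here. The size of the interaction is uncertain where they enter it.

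Among the largest falls the interaction was -4.81 for *ESM1*, -4.54 for *PEPC1*, -4.93 for *FBA5*, -4.57 for *BBX17*, -4.18 for *BBX14*, -5.28 for *AIG1* and -4.19 for *RLM3*. It was -4.17 for the carbonic anhydrase *CA2*, -4.01 for *LHCB2.3*, -3.76 for *NEET* and -3.99 for AT2G21210. The unnamed loci AT3G05730, AT5G48490, AT1G23130 and AT1G21500 had -4.86, -4.89, -4.43 and -4.30. The adjusted p of these 15 ran from 3.25e-06 to 0.00121.

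The 3 loci called in opposite directions were chosen on both media, which fixes a large interaction, and their values are a description. The interaction was -4.62 for AT3G28220, -3.16 for AT5G24200 and -2.96 for AT1G66100.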

How the results depend on the processing

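The count of 2583 called features stayed within 1.5 times under the alternatives of scaling, filtering, probes and fit, between 1757 (normexp background correction) and 3413 (array weights), with 1740 and 2469 of the 2583 among them. Normexp called 804 higher features, against 1244. The adjusted p alone called 8256 features, 4356 higher and 3900 lower. Leaving out 1 array gave 2190 to 3506 calls, 1036 to 1783 higher and 1154 to 1723 lower, the lowest without Col-0 replicate 1 and the highest without iU1-52 replicate 1. The 75th percentile scaling called 1127 higher and 1408 lower, and turned the median of the 7 reference genes to -0.12, against 0.14. Same-numbered arrays share a slide but were not taken as pairs, and a replicate block called 2596 features, 2557 of them among the 2583, and 76 without salt. It ended the calls of *SESA3* and AT1G47395 (adjusted p = 0.0558 and 0.07) and of no other named gene. For the interaction the block called 2268 features, and leaving out iU1-52 replicate 1 gave 3237. Of 142 called genes named by the rule, 111 kept their call under the alternatives of processing and fit, 123 when any 1 array was left out and 109 under both, and no value changed sign. Normexp ended 17 calls, among them those of *CYP82C2* (0.84), *NCED9* (0.86) and AT1G26400 (0.86), and group weights 9, among them *CRU2*, AT2G17680 and AT1G78500. The fit of 12 arrays ended those of AT2G42560 and *HAI2*. Dim probes, 3 arrays a line and the wider spread of iU1-52 limit what could be called.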

Other observations

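The groups given here were picked after their values were seen, so that their counts describe these arrays and no test of a group is given. Small auxin-upregulated RNAs (SAUR), short-lived transcripts of growing tissue, were lower in iU1-52 on salt for 31 of 60 members and higher for 2, with a median of -1.10 and of -0.01 without salt. Features called lower made up 5.59% of all features. Several SAUR genes are near-identical in sequence, and their probes may read more than 1 of them. NAC transcription factors were higher for 10 of 56 and lower for 1 (12 and 4 without iU1-52 replicate 1), and ABC transporters of the G class were higher for 9 of 35 and lower for 1, against 5.20% of all features called higher. SPL factors, which time the change to adult growth, were lower for 5 of 15 and higher for 0.

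Of 23 genes of the response to phosphate starvation, 6 were lower and 0 higher, with a median of -0.45 on salt and -0.22 without it. Besides *PAP14* and *PEPC1*, these were the galactolipid synthase genes *MGDC* (-3.47 ± 0.51 SE, adjusted p = 0.00389) and *MGD2* (-2.21 ± 0.28, adjusted p = 0.00243), the phosphate sensor gene *SPX3* (-2.64 ± 0.31, adjusted p = 0.00174) and the sulfolipid synthase gene *SQD2* (-1.31 ± 0.10, adjusted p = 0.000523). *PHR1*, the main factor of the response, differed by -0.13 (adjusted p = 0.248) and the phosphate transporter *PHT1;1* by 0.41 (adjusted p = 0.0777).

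Of 13 genes of tryptophan-derived phytoalexin synthesis, 6 were higher and 0 lower, with a median of 0.90 on salt and 0.45 without it. After *CYP71A18*, *CYP82C2* and *CYP71A13* came *MYB122* (2.00 ± 0.16, adjusted p = 0.000586), *PAD3* (1.60 ± 0.24, adjusted p = 0.00426), which makes camalexin, and *CYP71A12* (1.27 ± 0.22, adjusted p = 0.00708). Without salt *CYP71A12* was higher in iU1-52 by 2.26 (adjusted p = 0.0227).

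The largest rise of all features was that of the probe A_84_P796276, which was not matched to a locus, so that what it reads is not known here. Its mean was 15.85 in iU1-52 and 9.48 in Col-0 on salt, a difference of 6.37 (adjusted p = 0.000172), and the difference without salt was 9.03.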
